A study of Mus musculus with 10 samples.

Results

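Spp1, Dmp1, Ibsp, Mepe, Phex and Cpne7 are 6 of the 56748 genes in the deposited count table and were taken by their gene names. The first 4 encode secreted, acidic phosphoproteins of bone and tooth matrix, Phex encodes a peptidase of osteoblasts and osteocytes, and Cpne7 encodes a copine. The choice used measured values, since Dmp1 and Cpne7 had been among the largest falls with Fsk in an earlier reading of these libraries. Values of these 6 genes in the Fsk cultures are therefore given as a description, and no test of them there is read. The comparison of the 2 reporters under DMSO is tested, though its tdTomato+ libraries are also the ones the Fsk libraries are set against. Of the 6 genes, 5 passed the filter on low counts and Mepe did not.

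The RNA came from a single mouse embryonic stem cell line, 3xR, in which eGFP reports on Col2a1, a cartilage collagen gene, and tdTomato on Prg4, which encodes the joint lubricant lubricin, going by the reporters' names. Reporter-positive cells were collected at day 14 in 3 groups. There were 3 libraries of Prg4-tdTomato+ cells given Fsk, 3 of Prg4-tdTomato+ cells given DMSO and 4 of Col2a1-eGFP+ cells given DMSO, the solvent. The labels do not spell out Fsk, a common short form of forskolin, which activates adenylyl cyclase, and they give no dose. Whether replicates were grown as separate cultures is not said, and p-values cover only the spread between these libraries, which may be technical. The numbers in the titles are 1, 4 and 5 for Fsk, 1, 3 and 5 for tdTomato+ DMSO, and 1, 3, 4 and 5 for eGFP+ DMSO.

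Osteopontin, DMP1, bone sialoprotein and MEPE belong to the small integrin-binding ligand N-linked glycoproteins, which bind calcium and hydroxyapatite and carry the integrin-binding motif of arginine, glycine and aspartate. They are known for steering where and how fast mineral forms in bone and dentine. Osteopontin is also made by many cells outside bone, including macrophages, and restrains crystal growth. PHEX and DMP1 act in a shared pathway of osteocytes: loss of either raises the phosphate-wasting hormone FGF23 and gives hypophosphataemic rickets.

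Total counts ranged from 15355459 to 18988782 in the tdTomato+ Fsk libraries, from 18023599 to 20408696 in the tdTomato+ DMSO libraries and from 15561217 to 20391156 in the eGFP+ DMSO libraries. Reads of an 18S ribosomal RNA gene took between 0.0451% and 5.22% of a library. Levels are given as CPM, counts scaled to a common library size by edgeR's TMM method. Col2a1 had 19.7 to 53.6 CPM in tdTomato+ Fsk, 82.0 to 390.1 CPM in tdTomato+ DMSO and 838 to 2992 CPM in eGFP+ DMSO libraries, in the order of the reporters. Prg4 itself had 0.667 to 0.787 CPM in tdTomato+ Fsk, 0.479 to 1.25 CPM in tdTomato+ DMSO and 0 to 2.55 CPM in eGFP+ DMSO libraries, so this transcript did not separate the cells isolated by the reporter named for it.

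Other genes of osteocytes and osteoblasts ranged from trace levels to high ones in these cells. Sost, the gene of sclerostin, reached at most 0.364 CPM and Fgf23 at most 0.319 CPM in any library. Bglap, a gene of osteocalcin, reached at most 0.439 CPM, and Alpl, the gene of tissue-nonspecific alkaline phosphatase, 0.727 CPM. Bglap2, another osteocalcin gene, had 0.121 to 3.43 CPM in tdTomato+ Fsk, 0.521 to 1.81 CPM in tdTomato+ DMSO and 0 to 0.895 CPM in eGFP+ DMSO libraries. Its log2 fold change in tdTomato+ cells, Fsk over DMSO, was 0.77 (SE 1.17, adjusted p = 0.898 in edgeR). Pdpn, which marks early osteocytes and many other cells, had 267 to 447 CPM in tdTomato+ Fsk, 189.5 to 280.0 CPM in tdTomato+ DMSO and 187 to 339 CPM in eGFP+ DMSO libraries. Runx2, the master regulator of the osteoblast, had 25.1 to 29.5 CPM in tdTomato+ Fsk, 48.8 to 60.7 CPM in tdTomato+ DMSO and 31.1 to 62.0 CPM in eGFP+ DMSO libraries. The genes named in this paragraph were singled out after their values were seen.

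Dmp1, Ibsp, Mepe and Spp1 lie in that order on the plus strand of mouse chromosome 5, within 238.4 kb from the start of Dmp1 to the end of Spp1 (GRCm38 coordinates of GENCODE M21). Dmp1 (ENSMUSG00000029307) spans chr5:104202613-104214102, Ibsp (ENSMUSG00000029306) chr5:104299171-104311469, Mepe (ENSMUSG00000053863) chr5:104325329-104338611 and Spp1 (ENSMUSG00000029304) chr5:104435118-104441050. Phex (ENSMUSG00000057457) lies elsewhere, on the minus strand at chrX:157162075-157415312, and Cpne7 (ENSMUSG00000034796) on the plus strand at chr8:123117374-123135182. All 6 are annotated as protein-coding. A transcript of unconfirmed coding status, Gm42793, lies inside Spp1 on the same strand and had 1950 reads over all libraries, against 4273642 for Spp1. How overlapping genes were counted is not given in the sources used here.

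The start regions of the 3 cluster genes with more than a handful of reads are shown, since these are the neighbouring genes whose levels are described next. Each line gives 250 bases before and 50 bases after the transcript start in RefSeq (build GRCm38.p6, plus strand, 5′ to 3′). Capitals mark matches to 3 short motifs, searched on both strands: CCAAT, read as ATTGG on the other strand, ACCACA, a core bound by RUNX factors and read as TGTGGT on the other strand, and TGACG, the core of the cAMP response element, read as CGTCA on the other strand. The windows are chr5:104202367-104202666 for Dmp1, chr5:104299037-104299336 for Ibsp and chr5:104434861-104435160 for Spp1.
Dmp1: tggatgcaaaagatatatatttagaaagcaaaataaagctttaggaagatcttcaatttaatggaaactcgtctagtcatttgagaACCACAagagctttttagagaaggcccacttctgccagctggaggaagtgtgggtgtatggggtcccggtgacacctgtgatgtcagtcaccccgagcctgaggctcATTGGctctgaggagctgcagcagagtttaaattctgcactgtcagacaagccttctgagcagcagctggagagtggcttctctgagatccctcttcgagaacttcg
Ibsp: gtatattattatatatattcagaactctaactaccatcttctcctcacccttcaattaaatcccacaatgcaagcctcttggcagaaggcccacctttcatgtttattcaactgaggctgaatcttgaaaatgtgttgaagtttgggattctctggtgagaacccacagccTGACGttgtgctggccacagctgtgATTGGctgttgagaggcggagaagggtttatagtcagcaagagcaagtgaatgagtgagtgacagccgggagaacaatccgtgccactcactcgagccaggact
Spp1: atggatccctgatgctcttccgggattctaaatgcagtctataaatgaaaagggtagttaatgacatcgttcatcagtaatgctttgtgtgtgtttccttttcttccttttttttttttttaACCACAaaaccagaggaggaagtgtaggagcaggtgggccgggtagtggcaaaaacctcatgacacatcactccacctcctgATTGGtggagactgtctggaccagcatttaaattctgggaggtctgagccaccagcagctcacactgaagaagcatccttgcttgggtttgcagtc

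RefSeq windows were found for 5 of the 6 genes, all but Cpne7. CCAAT was found in 4 of these 5, all on the minus strand, against 37.4% of 32817 mouse windows of the same length. Its first base on the printed strand lay at -57 in Dmp1, -54 in Ibsp, -46 in Spp1 and -21 in Mepe, counted from the transcript start. ACCACA was found in 3 of 5, at -164 in Dmp1, at -128 in Spp1 and at -118 and, on the minus strand, -80 in Mepe, against 16.8% of all windows. TGACG was found in 2 of 5, at -79 in Ibsp and -20 in Phex, against 20.8%. The full palindrome TGACGTCA, which holds TGACG, was found in none of the 5 and in 1.79% of all windows. The RefSeq start used for Ibsp is 116 bp from the GENCODE gene start, and those for Dmp1 and Spp1 are 4 and 7 bp from it. The motifs were chosen after the sequences had been read, and a match is only a description of the letters.

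Spp1, the gene of osteopontin, was among the 10 genes with most reads in every library. It had 6901, 10021 and 4857 CPM in the tdTomato+ Fsk libraries 1, 4 and 5. In the tdTomato+ DMSO libraries 1, 3 and 5 it had 38020, 20927 and 4774 CPM, and in the eGFP+ DMSO libraries 1, 3, 4 and 5 it had 66962, 56521, 39907 and 7614 CPM. The groups overlap, because the DMSO libraries numbered 5 are low in both reporters and sit among the Fsk libraries. Spp1 took 0.557 to 0.939% of all counts in tdTomato+ Fsk, 0.664 to 3.62% in tdTomato+ DMSO and 0.949 to 5.77% in eGFP+ DMSO libraries, and by reads it ranked between 1 and 10. Means were 7260 ± 2601 CPM in tdTomato+ Fsk, 21241 ± 16625 CPM in tdTomato+ DMSO and 42751 ± 25939 CPM in eGFP+ DMSO (SD, n = 3, 3 and 4).

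Dmp1 encodes dentin matrix protein, which osteocytes secrete into the matrix around them. It had 23.5, 27.5 and 28.5 CPM in tdTomato+ Fsk libraries 1, 4 and 5, from 388 to 575 reads. It had 581, 792 and 191 CPM in tdTomato+ DMSO libraries 1, 3 and 5, and 740.0, 350.4, 941 and 233 CPM in eGFP+ DMSO libraries 1, 3, 4 and 5. All Fsk libraries lay below all DMSO libraries, and the 3 Fsk values lay within 1.21-fold of each other, against 4.15-fold in tdTomato+ DMSO and 4.04-fold in eGFP+ DMSO. Mean levels were 26.5 ± 2.63 CPM in tdTomato+ Fsk, 521 ± 305 CPM in tdTomato+ DMSO and 566 ± 331 CPM in eGFP+ DMSO. The 2 DMSO groups covered nearly the same range.

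Ibsp, the gene of bone sialoprotein, a nucleator of hydroxyapatite, was the most uneven of the 5 tested genes within the DMSO groups. It had 0.242, 0.450 and 0.149 CPM in tdTomato+ Fsk libraries 1, 4 and 5, from 4, 8 and 3 reads. In tdTomato+ DMSO libraries 1, 3 and 5 it had 3.13, 84.0 and 0.958 CPM, and in eGFP+ DMSO libraries 1, 3, 4 and 5 it had 6.68, 133, 8.99 and 0.671 CPM. In both DMSO groups the library numbered 3 was highest and the one numbered 5 lowest, 87.6-fold apart in tdTomato+ cells and 198-fold apart in eGFP+ cells. The Fsk libraries were below all DMSO libraries, though 0.450 CPM in Fsk library 4 and 0.671 CPM in eGFP+ DMSO library 5 rest on 8 and 13 reads.

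Mepe, whose protein carries an acidic peptide that binds mineral, had 0, 0 and 2 reads in tdTomato+ Fsk, 0, 4 and 0 reads in tdTomato+ DMSO and 0, 0, 2 and 3 reads in eGFP+ DMSO libraries. It was not detectable above a few reads in any group. A count of 0 allows up to 3 reads, or 0.120 to 0.216 CPM depending on the library, and this covers counting error only.

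Phex encodes a membrane-bound zinc peptidase that cleaves osteopontin and related acidic peptides. It had 1.88, 0.731 and 1.78 CPM in tdTomato+ Fsk libraries 1, 4 and 5, from 13 to 36 reads. It had 3.96, 26.3 and 4.91 CPM in tdTomato+ DMSO libraries 1, 3 and 5, and 4.48, 16.4, 12.7 and 10.7 CPM in eGFP+ DMSO libraries 1, 3, 4 and 5. All Fsk libraries lay below all DMSO libraries, and the library numbered 3 was the highest in both DMSO groups. Means were 1.46 ± 0.637 CPM in tdTomato+ Fsk, 11.7 ± 12.6 CPM in tdTomato+ DMSO and 11.1 ± 4.98 CPM in eGFP+ DMSO.

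Cpne7 encodes a copine, a calcium-dependent membrane-binding protein that has been studied in odontoblasts, the dentine-forming cells. It had 1.82, 1.63 and 1.04 CPM in tdTomato+ Fsk libraries 1, 4 and 5, from 21 to 30 reads. It had 10.9, 82.9 and 19.5 CPM in tdTomato+ DMSO libraries 1, 3 and 5, and 9.51, 23.4, 38.8 and 21.6 CPM in eGFP+ DMSO libraries 1, 3, 4 and 5. Fsk libraries were again all below the DMSO libraries, and within each DMSO group library 1 was lowest. Means were 1.496 ± 0.406 CPM in tdTomato+ Fsk, 37.7 ± 39.3 CPM in tdTomato+ DMSO and 23.3 ± 12.01 CPM in eGFP+ DMSO.

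**Figure D1:**
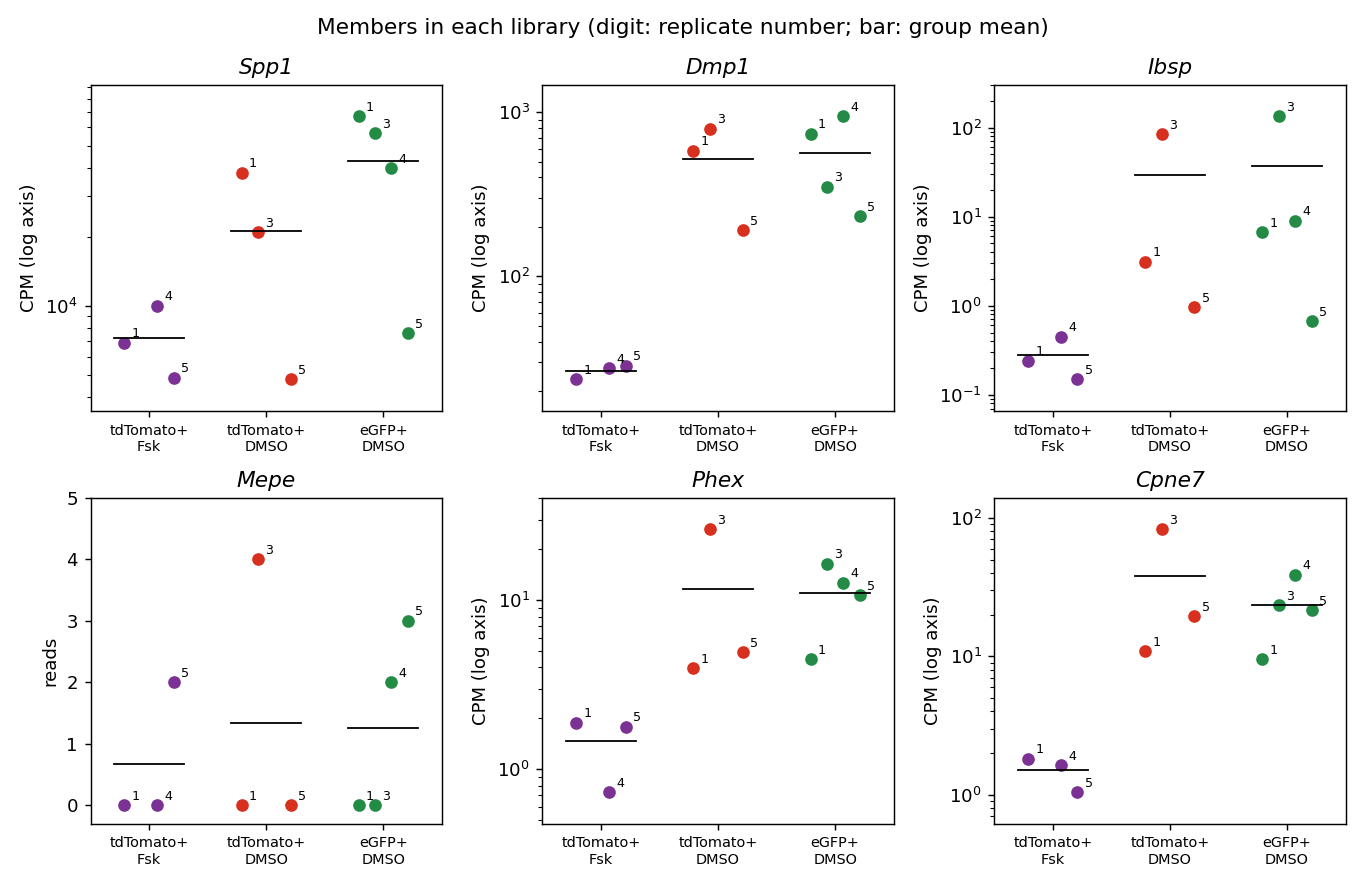
Level of each gene in CPM on a log axis (Mepe in reads on a linear axis) in the 3 tdTomato+ Fsk, 3 tdTomato+ DMSO and 4 eGFP+ DMSO libraries. Each dot is a library with its replicate number and each bar a group mean. Dmp1, Ibsp, Phex and Cpne7 are lower in all Fsk libraries than in any DMSO library, and Spp1 overlaps because of the DMSO libraries numbered 5.

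Per kb of exon the order of the genes was led by Spp1 and then Dmp1 in each group, with Mepe last. Mean Spp1 levels were 4405 CPM per kb in tdTomato+ Fsk, 12889 in tdTomato+ DMSO and 25941 in eGFP+ DMSO cells, and mean Dmp1 levels were 9.59, 189 and 205 CPM per kb in the same groups. Ibsp averaged 0.136 CPM per kb in tdTomato+ Fsk, 14.2 in tdTomato+ DMSO and 18.1 in eGFP+ DMSO cells. In the DMSO groups it came before Cpne7, at 7.17 CPM per kb in tdTomato+ DMSO and 4.43 in eGFP+ DMSO, but in tdTomato+ Fsk Cpne7, at 0.284, and Phex, at 0.233, were above it. The DMSO means of Ibsp rest largely on the libraries numbered 3, so its place relative to Cpne7 lies within the spread.

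With Fsk, the tdTomato+ cells had lower mean levels of all 5 tested genes than with DMSO. The log2 fold changes, tdTomato+ Fsk over tdTomato+ DMSO, were -6.69 (SE 2.05) for Ibsp, -4.66 (SE 0.77) for Cpne7, -4.30 (SE 0.65) for Dmp1, -2.99 (SE 0.76) for Phex and -1.55 (SE 0.89) for Spp1. Their median was -4.30, against -0.026 over all 16169 tested genes. Dmp1 and Cpne7, the 2 whose falls entered the choice, were among the 0.569% of all tested genes (0.272% counting lower ones) past an adjusted p of 0.05 in edgeR's quasi-likelihood fit. In 4 of the 6 genes all Fsk libraries were below all tdTomato+ DMSO libraries, beside 7.98% of tested genes. Both counts restate the contrast that the genes were chosen on, and nothing is read from them. In pooled RNA, fewer cells that make a transcript and less of it per cell cannot be told apart.

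A few libraries set the size of these differences. Without tdTomato+ DMSO library 3 the log2 fold changes were -2.84 for Ibsp, -1.59 for Phex and -3.34 for Cpne7. Spp1 was at -0.81 without tdTomato+ DMSO library 1 and at -2.02 without tdTomato+ DMSO library 5. Dmp1 lay between -4.69 and -3.87 in the 6 fits that each left out a library, and both Dmp1 and Cpne7 missed the threshold when any of the 3 Fsk libraries was left out.

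Between libraries of the same number, numbers 1 and 5 hold both tdTomato+ treatments. The numbers were not read as pairs in this comparison, so the ratios that follow are only a description. Dmp1 in the Fsk library was 0.0405 times its DMSO level in number 1 and 0.149 times in number 5. For Cpne7 the ratios were 0.167 and 0.0534, for Ibsp 0.0775 and 0.155, and for Phex 0.474 and 0.363. Spp1 stood apart, at 0.182 times in number 1 and 1.02 times in number 5, where both tdTomato+ libraries were low.

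**Figure D2:**
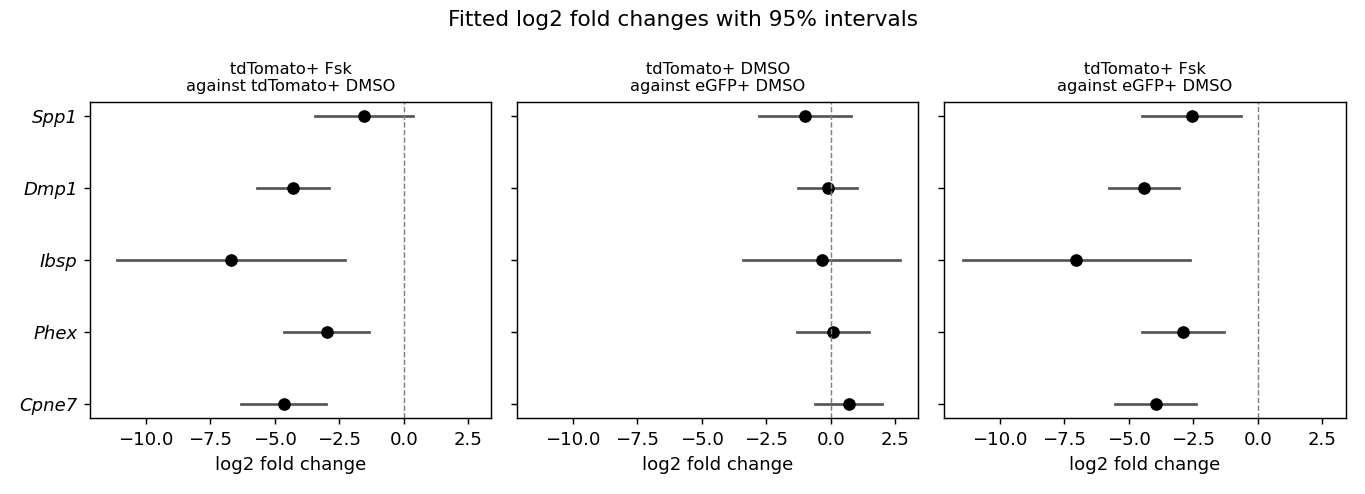
Fitted log2 fold changes of the 5 tested genes (dots) with 95% intervals (lines) in 3 comparisons: tdTomato+ Fsk against tdTomato+ DMSO, tdTomato+ DMSO against eGFP+ DMSO, and tdTomato+ Fsk against eGFP+ DMSO. All 5 dots lie below 0 in both comparisons with Fsk, and all 5 intervals span 0 between the DMSO groups.

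Against eGFP+ DMSO cells, which differ in reporter and treatment together and share the Fsk libraries with the comparison above, the tdTomato+ Fsk cells had log2 fold changes of -7.03 (SE 2.05) for Ibsp, -4.42 (SE 0.64) for Dmp1, -3.96 (SE 0.73) for Cpne7, -2.91 (SE 0.74) for Phex and -2.56 (SE 0.89) for Spp1. Dmp1 and Cpne7 were again among the genes past the threshold in edgeR, 1.36% of all tested (0.717% lower). All Fsk libraries were below all eGFP+ DMSO libraries in 4 of the 6 genes, beside 5.16% of tested genes. These are the Fsk libraries that the choice used, so nothing is read from either count. Spp1 was the exception among those tested, with 10021 CPM in Fsk library 4 against 7614 CPM in eGFP+ DMSO library 5. Ibsp was at -4.25 without eGFP+ DMSO library 3. Cpne7 missed the threshold without Fsk library 1, 4 or 5 or eGFP+ DMSO library 4.

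Between the reporters under DMSO, none of the 5 tested genes differed beyond the spread between libraries. The log2 fold changes, tdTomato+ DMSO over eGFP+ DMSO, were -1.01 for Spp1 (SE 0.83, 95% interval -2.80 to 0.78), -0.12 for Dmp1 (SE 0.53, -1.26 to 1.02) and -0.35 for Ibsp (SE 1.41, -3.39 to 2.69). For Phex it was 0.08 (SE 0.65, -1.32 to 1.48) and for Cpne7 0.69 (SE 0.60, -0.60 to 1.99). All 5 adjusted p-values were 1 in edgeR, and the 2 groups overlap for every gene. No gene of the 16169 passed in this comparison (0%), with 221 (1.37%) at an unadjusted p under 0.05, 13 past the threshold in DESeq2 and 0 in limma-voom. The intervals are wide enough to allow several-fold differences in either direction for Ibsp.

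Same-numbered libraries of the 2 reporters deviate together, so the pairs can be read within numbers. Spp1 in tdTomato+ DMSO was 0.568, 0.370 and 0.627 times the eGFP+ DMSO level in numbers 1, 3 and 5, lower in 3 of 3 pairs. With the replicate number as a block its log2 fold change was -0.999 (SE 0.55, adjusted p = 0.835 in edgeR). Dmp1 had ratios of 0.785, 2.26 and 0.819, Ibsp 0.468, 0.631 and 1.43, Phex 0.885, 1.60 and 0.458, and Cpne7 1.15, 3.55 and 0.901. In number 3 the tdTomato+ library exceeded the eGFP+ one for Dmp1, Phex and Cpne7 and not for Spp1 or Ibsp. The block turned the sign of Dmp1, to 0.020 (SE 0.47), and of Phex, to -0.45 (SE 0.51). It called none of the 5 and 0.0866% of all genes.

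Without tdTomato+ DMSO library 3 the tdTomato+ DMSO to eGFP+ DMSO log2 fold changes were -0.55 for Dmp1, -4.19 for Ibsp, -1.32 for Phex and -0.62 for Cpne7. Without eGFP+ DMSO library 3 that of Ibsp was 2.44. The direction between the reporters thus turned with single libraries for these 4 genes, and none was past the threshold in any of the 16 alternatives tried.

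The balance of osteopontin to DMP1 message differed between libraries as well. Per kb, the Spp1 to Dmp1 ratio was 492, 610.2 and 286 in tdTomato+ Fsk libraries 1, 4 and 5, against 109.7, 44.3 and 42.0 in tdTomato+ DMSO libraries 1, 3 and 5, and 152, 271, 71.1 and 54.9 in eGFP+ DMSO libraries 1, 3, 4 and 5. All Fsk libraries had a higher ratio than all DMSO libraries, a ratio that contains the Dmp1 level the choice used. Between tdTomato+ DMSO and eGFP+ DMSO the mean log2 ratio differed by -0.93 (exact two-sided permutation p = 0.257, smallest possible 0.0286), by a test that ignores the numbers. Within numbers the ratio was lower in tdTomato+ DMSO in 3 of 3 pairs, which was not tested.

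Sparcl1, Sparc and Dspp, the relatives and the neighbour in the chromosome 5 region, gave a mixed picture. Dspp, the dentin sialophosphoprotein gene just before Dmp1, had 4 reads in all. Sparcl1, a SPARC-like glycoprotein gene 123.5 kb before Dmp1, had 71.0 ± 28.5 CPM in tdTomato+ Fsk, 164 ± 119 CPM in tdTomato+ DMSO and 370 ± 311 CPM in eGFP+ DMSO cells. Its log2 fold change in tdTomato+ cells, Fsk over DMSO, was -1.21 (SE 0.77, adjusted p = 0.659 in edgeR). Pkd2, the polycystin gene that follows Spp1, had 125 ± 23.5 CPM in tdTomato+ Fsk, 127 ± 55.7 CPM in tdTomato+ DMSO and 94.8 ± 65.8 CPM in eGFP+ DMSO cells, with a log2 fold change of -0.02 (SE 0.54) in tdTomato+ cells. Sparc, on another chromosome, had 3097 ± 588 CPM in tdTomato+ Fsk, 3574 ± 1449 CPM in tdTomato+ DMSO and 4465 ± 2056 CPM in eGFP+ DMSO cells.

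**Figure D3:**
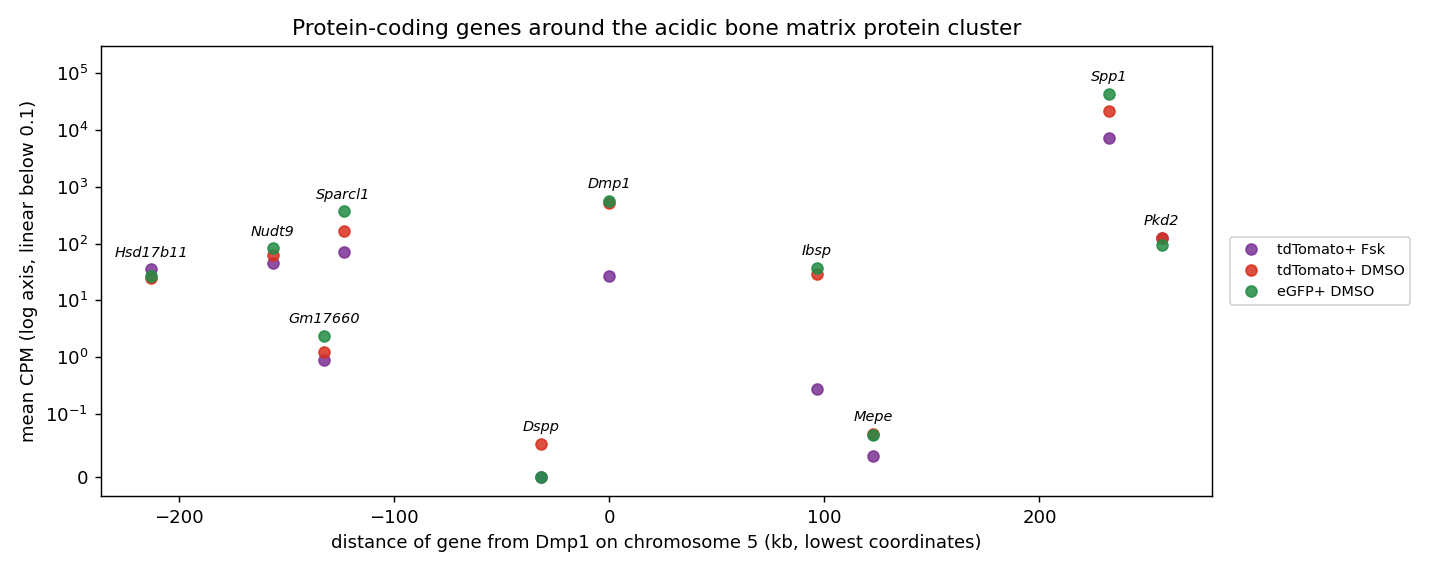
Mean CPM (log axis, linear below 0.1) of the protein-coding genes in the count table within 150 kb of the Dspp to Spp1 cluster, by distance from Dmp1, in tdTomato+ Fsk, tdTomato+ DMSO and eGFP+ DMSO cells. Groups are to be read within a gene. Dmp1 and Ibsp show the widest gap between Fsk and DMSO, and Pkd2, beyond Spp1, shows nearly the same mean in both tdTomato+ groups.

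Genes that act with these proteins were counted in 8 further lists of 69 genes, of which 52 were tested. In tdTomato+ cells, 1 of the 52 fell with Fsk and 1 rose by edgeR's test, 3.85% of them, against 0.569% of all tested genes. Their median log2 fold change was -0.47, against -0.026 over all genes, and 39 of 52 were negative. Under DMSO between the reporters 0 of 52 passed and the median was 0.18. In tdTomato+ Fsk against eGFP+ DMSO 2 fell and 3 rose, 9.62%, against 1.36% of all genes, with a median of -0.29. The lists were chosen with earlier results of these data known, so these counts and shares are a description and nothing is read from them.

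All 9 tested transcription factors that drive osteoblast genes had a negative log2 fold change with Fsk in tdTomato+ cells, as did 51.7% of all tested genes. Their median was -1.04, and 1 passed the test. Mef2c, a factor that drives the osteocyte gene Sost in adult bone, fell to 5.64, 6.07 and 8.12 CPM in tdTomato+ Fsk libraries, against 39.9, 21.3 and 21.4 CPM in tdTomato+ DMSO and 16.0 to 32.5 CPM in eGFP+ DMSO libraries. All Fsk libraries were below all DMSO libraries of both reporters, and the 2 DMSO groups overlapped. Of all tested genes, 7.98% lay that way against tdTomato+ DMSO and 5.16% against eGFP+ DMSO. Its log2 fold change in tdTomato+ cells was -2.06 (SE 0.39, adjusted p = 0.0318 in edgeR), and it passed in 1 of the 6 leave-outs, without tdTomato+ DMSO library 5. Against eGFP+ DMSO it was -1.99 (SE 0.37, adjusted p = 0.0206 in edgeR) and passed in 3 of the 7 leave-outs. Runx2 was at -1.04 (SE 0.32, adjusted p = 0.214 in edgeR). Sp7, the osterix gene, was at -4.14 (SE 1.05, adjusted p = 0.108 in edgeR) from levels no higher than 1.93 CPM in any library. Sp7 too was singled out after its values were seen.

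Of the 5 tested mineral enzymes and transporters none passed in any comparison in the main fit, and the median with Fsk in tdTomato+ cells was -1.58. With the replicate block 3 of the 5 were called in tdTomato+ Fsk against tdTomato+ DMSO, beside 3.14% of all tested genes. Against eGFP+ DMSO it also called 3, beside 5.07%. The numbers were not read as pairs in these comparisons. Ank, which exports the mineral inhibitor pyrophosphate or its precursor ATP, had 597 ± 50.1 CPM in tdTomato+ Fsk, 1788 ± 1049 CPM in tdTomato+ DMSO and 1272 ± 489 CPM in eGFP+ DMSO cells, a log2 fold change of -1.58 in tdTomato+ cells (SE 0.51, adjusted p = 0.235 in edgeR). Enpp1, which makes pyrophosphate, was at -1.76 (SE 0.59, adjusted p = 0.25 in edgeR). Alpl, which breaks it down, was too low to be tested.

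**Figure D4:**
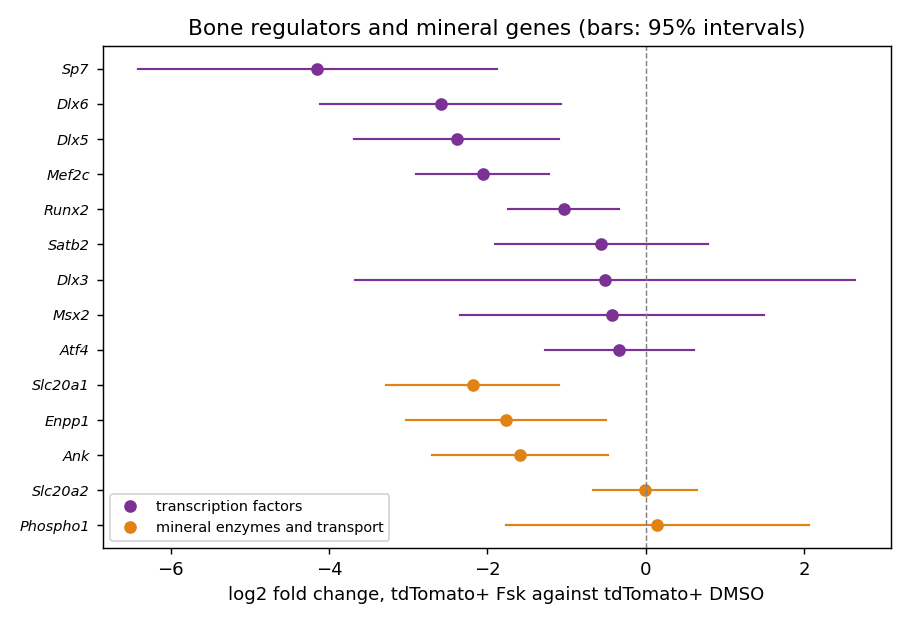
Log2 fold changes in tdTomato+ cells, Fsk against DMSO, of the 9 tested osteoblast transcription factors and 5 tested mineral enzymes and transporters (dots) with 95% intervals (lines). All 9 factors lie below 0. Mef2c, at -2.06, is the one past the threshold.

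Of 8 tested genes of bone matrix and secreted factors none passed in any comparison in the main fit. The replicate block called 1 in tdTomato+ Fsk against eGFP+ DMSO, beside 5.07% of all tested genes. Col1a1, the main bone collagen gene, had 6521 ± 1723 CPM in tdTomato+ Fsk, 9746 ± 2516 CPM in tdTomato+ DMSO and 5260 ± 1707 CPM in eGFP+ DMSO cells. Mgp, a mineral inhibitor of cartilage, had 1788 ± 1308 CPM in tdTomato+ Fsk, 4515 ± 3438 CPM in tdTomato+ DMSO and 8886 ± 5733 CPM in eGFP+ DMSO cells.

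Among 11 tested proteinases and kinases that process these matrix proteins, 3 were called in at least 1 comparison. Mmp9, a gelatinase that cleaves osteopontin, rose to 177, 14.2 and 9.41 CPM in tdTomato+ Fsk libraries 1, 4 and 5, against 1.67, 2.53 and 1.32 CPM in tdTomato+ DMSO and 0.568 to 1.17 CPM in eGFP+ DMSO libraries. Its log2 fold change in tdTomato+ cells was 5.18 (SE 0.97, adjusted p = 0.0309 in edgeR) and was 2.69 without Fsk library 1. It passed in 2 of the 6 leave-outs, without Fsk library 4 or 5. Against eGFP+ DMSO it was 6.17 (SE 0.91, adjusted p = 0.00747 in edgeR), and 3.68 without Fsk library 1. Mmp3, another osteopontin-cleaving proteinase, rose by 3.37 (SE 0.75, adjusted p = 0.0459 in edgeR) in tdTomato+ Fsk against eGFP+ DMSO cells. Pcsk5, a proprotein convertase gene, fell by 2.17 there (SE 0.46, adjusted p = 0.035 in edgeR), and it was at -2.13 in tdTomato+ cells with Fsk over DMSO (adjusted p = 0.0717 in edgeR). Mmp3 passed in 1 and Pcsk5 in 2 of the 7 leave-outs against eGFP+ DMSO.

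Among 10 tested integrin genes and Cd44, the receptors for osteopontin, Itgb8 passed in tdTomato+ Fsk against eGFP+ DMSO, at 2.57 (SE 0.52, adjusted p = 0.0288 in edgeR). It had 6.69 to 14.9 CPM in Fsk libraries against 0.862 to 3.20 CPM in eGFP+ DMSO libraries, and passed in 1 of 7 leave-outs. Among 3 tested peptidases of the Phex family none passed in the main fit. Mme, the neprilysin gene, had 125 ± 62.9 CPM in tdTomato+ Fsk, 45.3 ± 12.8 CPM in tdTomato+ DMSO and 46.9 ± 18.7 CPM in eGFP+ DMSO cells, on the other side of 0 from Phex at 1.47 in tdTomato+ cells (SE 0.43, adjusted p = 0.179 in edgeR). Ece1, of the same family, was at -0.10 (SE 0.37). Of 4 tested copines besides Cpne7 none passed in the main fit, and Cpne3 and Cpne2 were at 0.18 (SE 0.30) and -1.03 (SE 0.52) in tdTomato+ cells.

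Genes with the most similar course over the 10 libraries were ranked by the root mean square difference of centred log2 CPM among 10457 genes of at least 5 mean CPM. For Dmp1 they were Als2cl at 0.657, Amer2 at 0.674 and Tmie at 0.783 log2 units, where the root mean square of Dmp1 itself was 2.03. For Spp1 they were Cav2, Gpx3 and Nbl1, at 0.403 to 0.478. For Cpne7 they included Rgs16 and Phex, another of the 6, both at 0.786. For Phex they were Malt1, Crim1 and Atf3, at 0.45 to 0.52, and for Ibsp Gdf15, Adm and Ace, at 0.87 to 1.33. Cpne7 was at 0.985 from Dmp1, with 20 genes closer. Other pairs of the tested members ranged widely. From Dmp1, 63 genes were closer than Phex and 3628 closer than Ibsp. From Spp1, 3329 genes were closer than Dmp1 and 9943 closer than Ibsp. All distances include the difference between Fsk and DMSO libraries that the choice used. The points share libraries, so these distances carry no test.

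Some lists of markers of other cell types were lower with Fsk in tdTomato+ cells and others were not. The summed level of 10 chondrocyte markers ranged from 194.5 to 278.9 CPM in tdTomato+ Fsk, from 513 to 943.5 CPM in tdTomato+ DMSO and from 1625 to 5168 CPM in eGFP+ DMSO libraries. All 10 were tested, and 1, Comp, a cartilage matrix glycoprotein gene, fell with Fsk in tdTomato+ cells, at -3.76 (SE 0.68, adjusted p = 0.0269 in edgeR). In tdTomato+ Fsk against eGFP+ DMSO cells 6 of the 10 were called lower, against 0.717% of all tested genes. Between the reporters under DMSO 0 were called, but the replicate block called 7 of the 10, against 0.0866% of all tested genes. The eGFP+ cells were isolated by a reporter of Col2a1, which is on this list, and the list was chosen with earlier results known. Nothing is therefore read from these counts. The sum of 10 macrophage markers ranged from 10.99 to 24.6 CPM in tdTomato+ Fsk, from 34.8 to 117.5 CPM in tdTomato+ DMSO and from 28.9 to 139.6 CPM in eGFP+ DMSO libraries. Most of it was Cd68, a lysosomal gene that other cells also express. The defining marker Tyrobp was at 0 in all 10 libraries, Ptprc reached at most 0.319 CPM and Adgre1 at most 0.414 CPM. The sum of 6 osteoclast markers, most of it Ctsk, ranged from 34.5 to 62.1 CPM in tdTomato+ Fsk, from 63.0 to 123.5 CPM in tdTomato+ DMSO and from 54.2 to 202.4 CPM in eGFP+ DMSO libraries. Of its 3 tested genes 1, Ctsk, was negative with Fsk in tdTomato+ cells, and the median was 0.86. Sums of 6 tendon markers ranged from 485.5 to 712 CPM in tdTomato+ Fsk, from 323 to 749.9 CPM in tdTomato+ DMSO and from 384 to 924 CPM in eGFP+ DMSO libraries. Sums of 5 joint surface markers ranged from 90.1 to 237 CPM in tdTomato+ Fsk, from 67.4 to 236 CPM in tdTomato+ DMSO and from 64.4 to 272 CPM in eGFP+ DMSO libraries. Most of this sum was Cd44, also counted above as an osteopontin receptor. Of the 4 tested joint surface genes 3 were negative with Fsk in tdTomato+ cells, with a median of -0.12. Cilp was at 3.45 (SE 1.27, adjusted p = 0.317 in edgeR). For 6 epithelial markers the sum ranged from 7.72 to 68.9 CPM in tdTomato+ Fsk, from 3.03 to 26.4 CPM in tdTomato+ DMSO and from 15.2 to 107 CPM in eGFP+ DMSO libraries. For 5 endothelial markers it ranged from 0.842 to 10.1 CPM in tdTomato+ Fsk, from 1.16 to 1.60 CPM in tdTomato+ DMSO and from 0.431 to 1.60 CPM in eGFP+ DMSO libraries. Neural and skeletal muscle sums were at most 50.1 and 5.33 CPM in any library. No gene of these last 6 lists passed in the main edgeR fit in any comparison. The replicate block called 1 epithelial marker in tdTomato+ Fsk against tdTomato+ DMSO, beside 3.14% of all tested genes. The part of these cells and of the share of ribosomal RNA reads in the levels of the 6 genes was not tested, and the tables without ribosomal RNA and mitochondrial genes moved no call of the 6.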

How the data were processed

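RNA of reporter-positive cells in 10 libraries was measured by sequencing, after Trizol extraction per the labels. The authors deposited raw counts of reads for 56748 genes in 1 table, and libraries were assigned to groups by their titles. The genome build was mm10 per the submitters' processing notes. Not given in the sources used here: aligner, counter, annotation and strandedness of the counting. Of the gene identifiers, 91.8% are in GENCODE M21, which gave coordinates and exon lengths.

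The members and gene lists were chosen with earlier results of these data known. Counts were fitted in R 4.3.3 with edgeR 4.0.16 (filterByExpr by group, 16169 genes kept, TMM, robust glmQLFit with group as the term over all 10 libraries, 7 residual degrees of freedom), with Benjamini-Hochberg adjustment at 0.05. The standard error is the log2 fold change divided by the square root of F. Levels are CPM on TMM-scaled sizes. The steps were tested on simulated data. Total counts of 15355459 to 20408696 limit the precision for genes with few reads, and floors of 3 reads cover counting error only. The 95% intervals of fold changes include the spread between libraries.

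Named genes were the 6 members, called genes of the 8 further lists or the 2 with most counts where none was called, the 3 genes nearest in profile to each tested member (prior count 2), and Col2a1 and Prg4. For Cpne7 the full set of nearest genes is not reported here. Other names were added after their values were seen and are marked as such, or neighbour the members on chromosome 5.

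Deviations from group means of the 3 same-numbered tdTomato+ and eGFP+ DMSO pairs correlated at 0.617 to 0.672, above the bound of 0.1, against at most 0.149 for other pairs. Because deviations are centred within each group, high values in same-numbered pairs by themselves lower those of other pairs. All same-numbered pairs were above the bound and above every other pair, and the numbers were therefore read as pairing these groups. This rests on the counts alone, as no label explains the numbers.

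Alternatives were DESeq2 1.42.0, limma-voom (limma 3.58.1), RLE scaling, plain library totals, all genes with a read, a minimum of 1 CPM in 3 libraries, a fit of the 2 compared groups by themselves, the replicate block, and each library left out. Dropping both libraries numbered 3, and dropping ribosomal RNA and mitochondrial genes, were chosen after seeing the data.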

Additional observations from a re-analysis of the deposited data

Results flagged for a closer look

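Ibsp in the 4 eGFP+ DMSO libraries stood out because a single library was far from the others. Library 3 had 133 CPM, and the remaining libraries had between 0.671 and 8.99 CPM. Among tdTomato+ DMSO libraries number 3 was likewise the highest, at 84.0 CPM. Chance alone sets about 1 in 20 groups apart in this way if values are normally distributed, which was not checked for these levels.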

How the results depend on the processing

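For tdTomato+ Fsk against tdTomato+ DMSO, where 92 genes passed, DESeq2 called 566, no filter on low counts 462, only the 2 groups compared 260 and leaving out the libraries numbered 3 left 50 (chosen after seeing the data). Members called, 2 of 5, became 1 with limma-voom. Phex, not called in the main fit, passed in 2 of the 15 alternatives. The choice of members used the falls with Fsk, so nothing is read from calls of members in this comparison. Further list genes called, 2 of 52, became 11 with DESeq2, 1 with limma-voom, 8 without a filter and 4 with only the 2 groups. Leaving out 1 library gave 22 to 75 genes, 0 to 2 members and 0 to 1 list genes.

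For tdTomato+ DMSO against eGFP+ DMSO, where 0 genes passed, DESeq2 called 13 and no filter 18. Phex turned to -0.36 with limma-voom and, without the libraries numbered 3, Phex was at -1.08 and Cpne7 at -0.63. Over the leave-outs Dmp1 ranged from -0.55 to 0.28, Ibsp from -4.19 to 2.44, Phex from -1.32 to 0.49 and Cpne7 from -0.62 to 1.13.

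For tdTomato+ Fsk against eGFP+ DMSO, where 220 genes passed, DESeq2 called 798 and no filter 800. Members called, 2 of 5, became 4 with DESeq2, 1 with limma-voom and 4 without a filter. List genes called, 5 of 52, became 16 with DESeq2, 14 without a filter and 3 without the libraries numbered 3. Leave-outs gave 51 to 469 genes, 1 to 3 members and 1 to 7 list genes. The cause of these shifts was not tested. Nothing is read from the calls of members here either, since their choice used these Fsk libraries.

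With the replicate number as a block, 508 genes, 3 members and 9 list genes were called for tdTomato+ Fsk against tdTomato+ DMSO, and 820 genes, 4 members and 16 list genes for tdTomato+ Fsk against eGFP+ DMSO. The member counts with Fsk are a description only, since the choice used the Fsk libraries. For tdTomato+ DMSO against eGFP+ DMSO the block called 14 genes and turned Dmp1 to 0.020 and Phex to -0.45, and no call of a member changed. In the comparisons with Fsk the same-numbered pairs correlated at 0.128 and 0.373, and at 0.0771 to 0.421, with other pairs reaching 0.271 and 0.249, so the numbers were not read as pairs there. Mean levels moved by less than 1 SD under RLE scaling and plain library totals for all 6 members. Ibsp and Mepe in the Fsk libraries are limited by depth, at 8 reads or fewer per library.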
